A study of Mus musculus with 2 samples.

Results

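The genes examined were 48 genes of the cell division cycle, 15 of which control the passage from G1 into S phase, 14 act in DNA replication and 19 in mitosis. They were taken from a list of symbols, and a gene was represented by the probe sets that the platform annotation assigns to it alone. Such probe sets were found for 47 genes of the 18193 on the array, Ccnb1 being the gene without one and not analysed here. The data were 2 one-colour Affymetrix Mouse Genome 430 2.0 arrays of whole mouse lung at embryonic day E15.5, one for wild type and one for TAZ-deficient littermates. For each genotype 4 total RNA samples were mixed, so that each group was 1 pool on 1 array. The Wwtr1 gene encodes TAZ, a coactivator of transcription held in check by the Hippo kinases. The sources used here do not give the allele or method behind the deficiency, or the strain.

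The cell cycle is driven by cyclin-dependent kinases, each active only when bound by a cyclin. In G1, D cyclins with CDK4 or CDK6 and then E cyclins with CDK2 phosphorylate the pocket proteins of the retinoblastoma family, which releases E2F factors to switch on the genes of DNA replication. Later, genes of mitosis are transcribed together, and their products condense the chromosomes, build the spindle and are destroyed as cells divide. The fetal lung at the stage studied grows by branching, with dividing cells in both epithelium and mesenchyme, and control of cell number is the function for which the Hippo pathway is best known.

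Transcripts of the cell cycle were at close to the same signal in lungs with and without TAZ. All 47 genes were measured, meaning a signal above 15.2, the median of all values to which lower signals were raised, and all were above it on both arrays. The median log2 ratio, taken as TAZ-deficient over wild type here and throughout, was 0.02, against -0.01 over the 12032 measured genes of the array. For 36 of the 47 genes the signals were within 1.1-fold of each other. That was 76.6%, beside 58.39% of all measured genes. Among the 6732 genes with signals above 106.3 on both arrays it was 72.45%, so the share was near that of bright genes. At its brightest probe set, no cell cycle gene was 1.5-fold higher, where 1.28% of all measured genes were. None was 1.5-fold lower at that probe set, where 1.47% were. Of those 6732 brighter genes only 14 were 1.5-fold higher and 8 were 1.5-fold lower. The absence of such differences at the brightest probe sets of the 47 was thus near the background of bright genes. Among all 92 measured probe sets of the 47 genes, 1 was 1.5-fold higher and 2 were 1.5-fold lower. At the brightest probe sets, the largest differences were those of Ccnd1, Ccne1 and Cdk2. Ccnd1, the gene of cyclin D1, was 1.21-fold higher at 1 of its 3 probe sets. Ccne1, for cyclin E1, was 1.32-fold lower at 1 of its 2 probe sets and 1.02-fold lower at the other. The kinase gene Cdk2 was 1.29-fold lower at its 1 measured probe set.

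These 3 genes were also the only ones at least 1.2-fold different at their brightest probe set. The 1 gene higher was 2.13% of the 47, beside 8.03% of all measured genes, and the 2 lower were 4.26%, beside 10.6%. Probe sets of one gene disagree more where they are dim, and 45 of the 47 genes lay above 106.3, the 75th percentile of all values, on both arrays. Among the 6732 genes of the array that did so, 3.12% were at least 1.2-fold higher and 3.98% at least 1.2-fold lower, beside 2.22% and 4.44% of the 45. Read against genes of like signal, the shares of cell cycle genes past 1.2-fold were thus near the background. Since each genotype is 1 array, replicate error is unknown, no difference has a test, and in whole lung fewer dividing cells and less RNA per cell cannot be told apart.

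**Figure D1:**
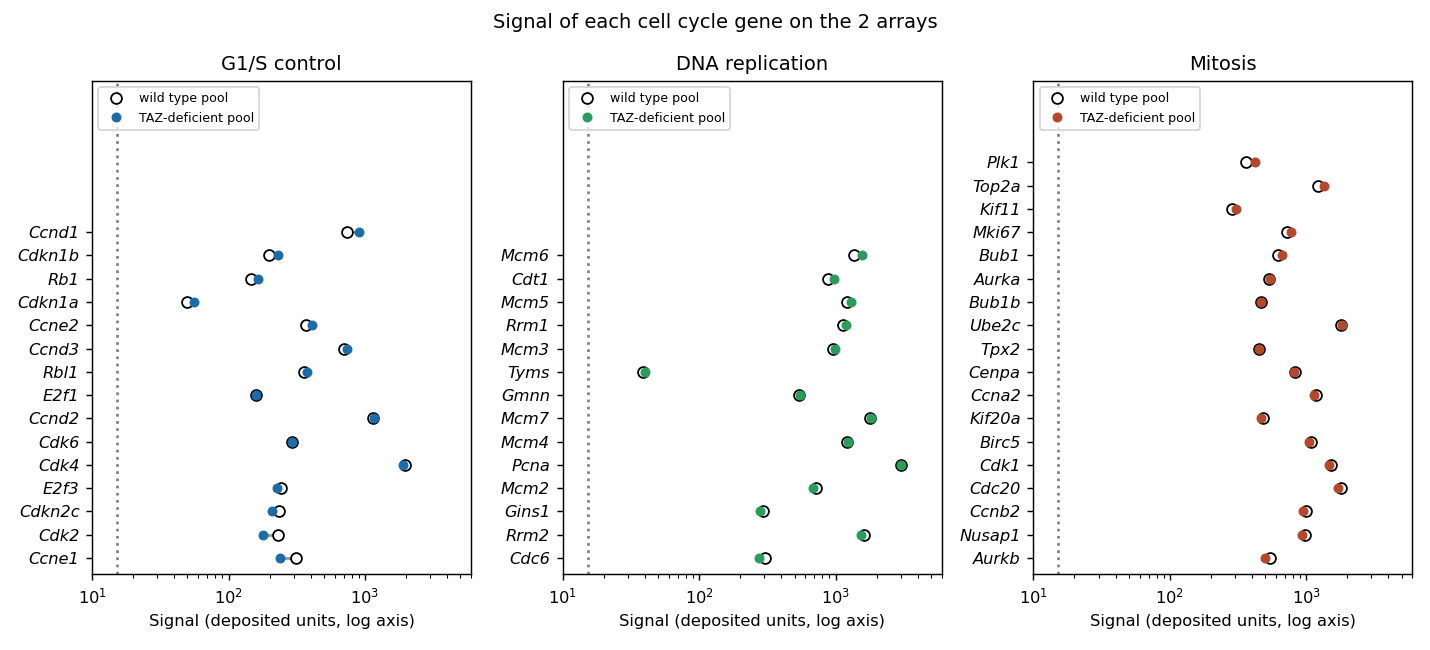
Signal in deposited units (log axis) of the brightest probe set of each of the 47 genes in the wild type pool (open circles) and the TAZ-deficient pool (filled circles), in order of their ratio, with 1 array per genotype and the dotted line at 15.2. The pairs of circles overlap or touch for most genes, with Ccnd1 at the top and Ccne1 and Cdk2 at the bottom of the G1/S panel the furthest apart; signals of different genes come from different probes and are not comparable.

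The arrays followed their labels. The 3 probe sets of Wwtr1 read 791.2, 222.9 and 176.9 on the wild type array and 11.3, 6.4 and 3.9 on the other. Of 10 genes that mark lung, all were measured, among them Sftpc (4142.5 and 4121.5), the surfactant protein gene of distal epithelium, and Nkx2-1 (61.1 and 60.6), the regulator of lung identity. Some marker lists of other cells did differ between the pools. Of 12 red cell genes 7 were measured, with a median log2 ratio of -0.12 and a range from -0.81 to 1.85, the 3 embryonic globins Hbb-y, Hbb-bh1 and Hba-x being at least 3.05-fold higher and Trim10 1.76-fold lower, while Gata1, Klf1, Epb42 and Rhag were at or below 15.2 on both arrays. Smooth muscle genes were lower in 6 of 6 (median log2 ratio -0.36, range -0.59 to -0.03, the lowest being Cnn1 at 118.6 and 79.0). Heart muscle genes were lower in 4 of 4 measured of 6 (median -0.65, range -0.86 to -0.34), Myh6 and Nppa being below 15.2. Myl7 was 1.81-fold lower (83.6 and 46.2). Nearer to 15.2, Myh7 was 1.62-fold lower (24.9 and 15.4) and Tnnt2 1.52-fold lower (30.6 and 20.1). With 106.3 in place of 15.2, 4 smooth muscle genes and 1 heart muscle gene were measured, all lower. Of all 12032 measured genes 6370 had ratios below 0. Medians were 0.04 for epithelium (range -0.22 to 0.10), 0.08 for mesenchyme (-0.11 to 0.19), -0.09 for endothelium (-0.20 to 0.23) and -0.10 for leukocytes (-0.45 to 0.25), with 6 genes in each, and -0.01 (-0.41 to 0.24) for the lung genes. The part of any of these cells in the cell cycle values was not tested.

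The promoters of the listed genes hold regulatory letters in unequal shares by phase, which the list did not use. RefSeq promoters (build GRCm38.p6, 250 bases before to 50 after a start) were at hand for 37 of the 48 genes, with 42 starts. The E2F letters TTTCGCGC or TTTGGCGC on either strand were found for 5 of 11 replication genes, 1 of 11 G1/S genes and 1 of 15 mitosis genes, beside 0.929% of all 27025 genes. The letters TTTGAA or TTCGAA, the core of the cell cycle genes homology region (CHR) that represses mitosis genes in G1, were found on either strand for 12 of 15 mitosis genes, 2 of 11 replication genes and 1 of 11 G1/S genes, beside 21.7% of all genes. CCAAT, the letters of NF-Y sites, was found for 13 of 15, 8 of 11 and 5 of 11, beside 41.1%. A promoter of 12 mitosis genes held both CHR and CCAAT letters (8.61% of all genes). TTCGAA reads the same on both strands and is counted once a gene. A match is a description and not a binding site.

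Sequences of 5 promoters are shown because they display these letters close to the start, each being the 150 bases that end just before the start, 5′ to 3′ on the gene's strand, with every E2F, CHR and CCAAT match in capitals (CCAAT and TTTGAA appear as ATTGG and TTCAAA on the opposite strand). Rbl1 (chr2:157204535-157204684, minus strand) and Mcm6 (chr1:128359706-128359855, minus strand) hold E2F letters, and Mcm6 also holds CCAAT letters. In Mcm6 the first E2F match overlaps one on the opposite strand. Cdk1 (chr10:69352913-69353062, minus strand) holds E2F, CHR and CCAAT letters, and Cdc20 (chr4:118437344-118437493, minus strand) and Ube2c (chr2:164769779-164769928, plus strand) hold CHR and CCAAT letters.
Rbl1: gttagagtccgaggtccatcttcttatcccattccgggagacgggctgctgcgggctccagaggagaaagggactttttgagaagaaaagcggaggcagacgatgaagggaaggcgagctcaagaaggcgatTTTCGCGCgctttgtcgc
Mcm6: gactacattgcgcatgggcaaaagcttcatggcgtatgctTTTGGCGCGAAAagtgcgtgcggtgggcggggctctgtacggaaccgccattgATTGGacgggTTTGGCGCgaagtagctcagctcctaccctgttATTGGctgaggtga
Cdk1: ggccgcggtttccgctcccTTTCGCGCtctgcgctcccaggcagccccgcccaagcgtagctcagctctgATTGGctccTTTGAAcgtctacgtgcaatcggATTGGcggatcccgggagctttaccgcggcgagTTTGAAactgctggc
Cdc20: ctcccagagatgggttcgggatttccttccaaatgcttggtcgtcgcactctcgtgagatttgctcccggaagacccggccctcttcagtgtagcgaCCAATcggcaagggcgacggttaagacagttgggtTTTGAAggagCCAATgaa
Ube2c: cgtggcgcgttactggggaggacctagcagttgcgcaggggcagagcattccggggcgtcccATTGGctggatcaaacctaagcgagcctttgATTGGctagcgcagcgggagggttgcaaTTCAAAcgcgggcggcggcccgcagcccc

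The 5 replication genes with E2F letters (Mcm3, Mcm5, Mcm6, Mcm7 and Cdt1) had log2 ratios from 0.03 to 0.18, and the 12 mitosis genes with CHR letters ratios from -0.07 to 0.21. The 25 measured genes of the list with CCAAT letters ranged from -0.37 (Cdk2) to 0.21, Cdk2 being the 1 of them at least 1.2-fold lower. Over the array, 181 measured genes had E2F letters in a promoter, with a median log2 ratio of 0.01, and 4.97% of them were at least 1.2-fold higher and 7.18% at least 1.2-fold lower. The 634 measured genes with both CHR and CCAAT letters had a median of 0.00, with 9.15% and 7.89% past 1.2-fold.

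Among regulators of the G1/S transition, the D cyclins, which link growth signals to the cycle, gave no single direction across their probe sets. The brightest probe set of Ccnd1 read 744.3 in the wild type pool and 902.2 in the TAZ-deficient one, the order in which all pairs of signals are given. Its other probe sets read 714.4 and 691.5, and 269.1 and 235.5. The higher signal in TAZ-deficient lung was therefore seen at 1 of 3 probe sets. Ccnd2 had 7 probe sets, of which the brightest read 1152.9 and 1161.7 and the next 995.0 and 1190.2. In all, 5 of the 7 were higher in TAZ-deficient lung, with log2 ratios from -0.12 to 0.46, the highest belonging to the dimmest (29.0 and 39.9). Ccnd3 read 706.9 and 744.6, 1.05-fold higher.

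Their kinase partners read nearly the same in both genotypes. Cdk4 read 1958.7 and 1907.3, and its 3 probe sets had log2 ratios from -0.04 to 0.05. Cdk6 read 293.8 and 292.8, with 261.4 and 276.1 at a second probe set. Neither kinase differed by more than 1.06-fold at any measured probe set.

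The kinase and cyclin that act at the entry into S phase included the lowest ratios of the set. Cdk2 read 230.1 and 178.2. This was its one measured probe set, of a type that matches several transcripts of the gene, since the other read 3.0 and 0.4. Ccne1 read 313.6 and 237.5 at its brightest probe set, which has the suffix of a cross-hybridising set, but 129.7 and 127.7 at the other. The lower signal of Ccne1 was thus not shared by its second probe set (log2 ratios of -0.40 and -0.02). Ccne2, the gene of the paralogous cyclin E2, read 370.7 and 406.2, a log2 ratio of 0.13.

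The pocket proteins and E2F factors, which hold back or activate the S phase genes, varied in both directions. Rb1, the retinoblastoma gene, read 144.9 and 164.9 (1.14-fold higher). Rbl1, whose product partners repressive E2Fs, read 359.9 and 377.2 at one probe set and 70.9 and 64.1 at another. E2f1, an activator E2F, read 157.9 and 159.2, and 63.2 and 76.4 at a second probe set (1.21-fold higher). E2f3, another activator, read 243.3 and 227.6 at its brightest probe set (1.07-fold lower) but 70.0 and 41.9 at its second (1.67-fold lower). That second probe set of E2f3 had the lowest log2 ratio, -0.74, of the 92 measured probe sets of the 47 genes.

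Inhibitors of the kinases had ratios on both sides of 0. Cdkn1a, the gene of p21, read 49.5 and 56.0 (1.13-fold higher), and Cdkn1b, the gene of p27, read 198.4 and 229.5 (1.16-fold higher), each by its one measured probe set. Cdkn2c, an INK4 inhibitor of CDK4 and CDK6, read 236.1 and 208.9 (1.13-fold lower). Cdkn1c, the remaining CIP/KIP gene and no member of the list, read 1493.6 and 1565.2. The 3 CIP/KIP genes had log2 ratios from 0.07 to 0.21, none reaching 1.2-fold, and the 3 measured INK4 genes from -0.58 (Cdkn2b, near the floor) to -0.07. These families were grouped after the values were seen and the difference between them was not tested.

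Of 25 further G1/S genes, 23 were measured and 17 had negative ratios, with a median log2 ratio of -0.04. Of all 12032 measured genes 6370 were below 0. In this group 3 were at least 1.2-fold lower and 0 higher, beside 10.6% and 8.03% of all measured genes. With the floor at 106.3, 1 of 21 was lower, beside 3.98% of genes above 106.3 on both arrays. E2f2, an activator E2F, had a log2 ratio of -0.59 (150.1 and 99.8), though its second probe set read 42.4 and 44.0. E2f4, a repressor E2F with 1 probe set, was 1.25-fold lower (122.6 and 98.1), and Cdkn2b, an INK4 gene induced by TGF-beta, was 1.49-fold lower, with a signal of 23.1 in wild type and one barely above 15.2 without TAZ. Over the 8 measured E2F genes, 7 ratios were below 0 on the deposited scale and 4 after quantile normalization. The dimmest of the 3 probe sets of E2f5, picked out after its values were seen, read 127.2 and 36.9, whereas the others read 257.0 and 239.3, and 134.3 and 119.9.

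**Figure D2:**
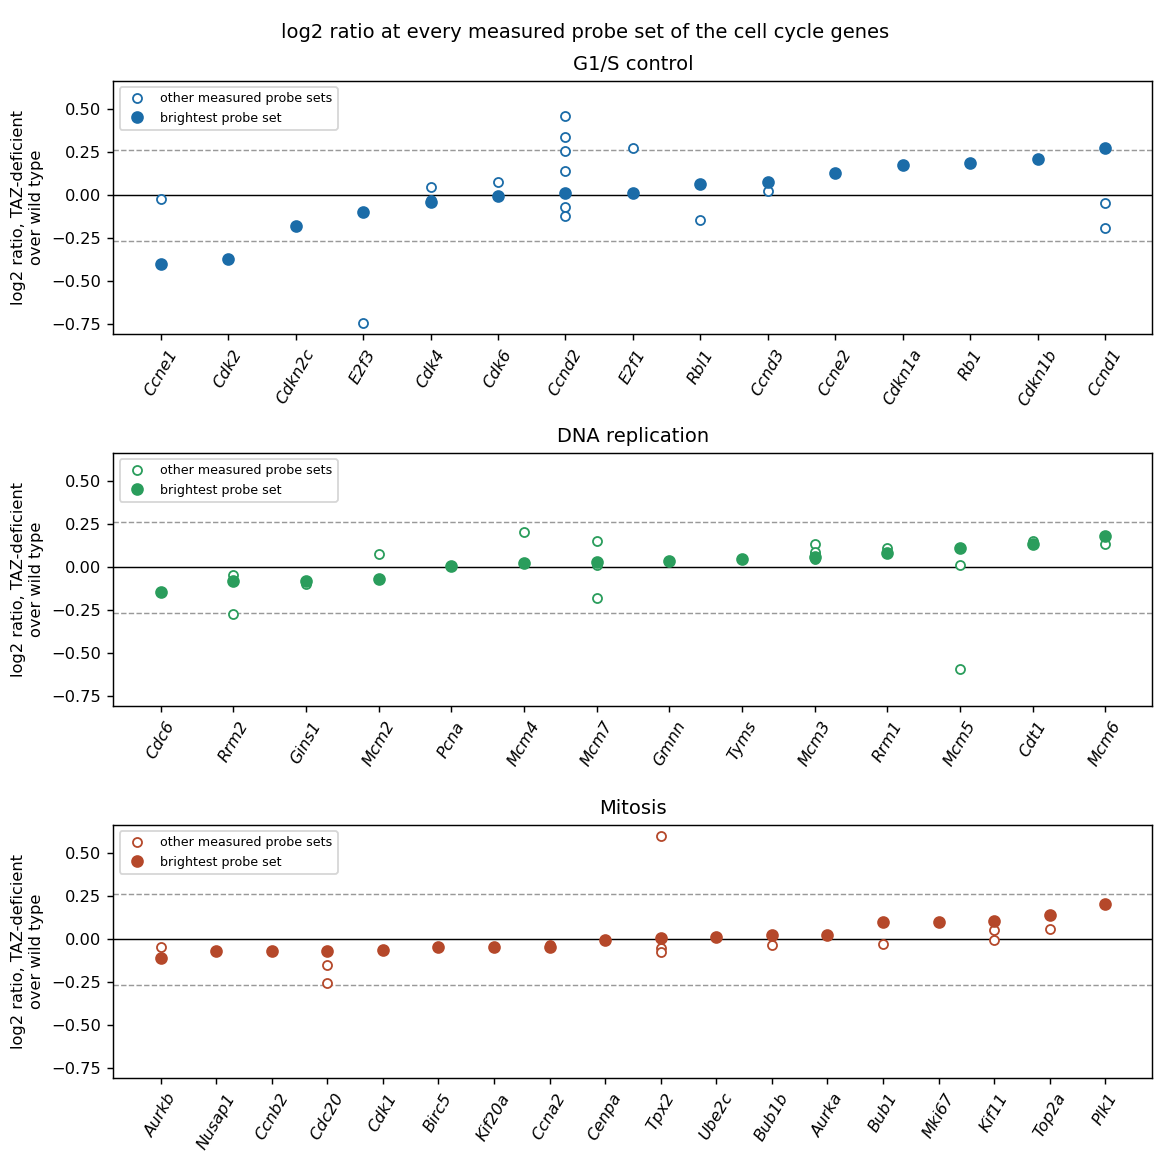
log2 ratio (TAZ-deficient to wild type) at each of the 92 measured probe sets of the 47 genes, filled for the brightest probe set of a gene and open for its others, genes being ordered by the filled circle and dashed lines marking 1.2-fold. Open circles lie far from the filled one for E2f3, Ccnd2, Mcm5 and Tpx2, and the filled circles of the G1/S panel span -0.40 to 0.28.

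Genes of DNA replication had 10 of 14 positive ratios on the deposited scale and a median log2 ratio of 0.03, where 46.8% of all measured genes were above 0. After quantile normalization Pcna, Mcm4 and Mcm7 turned negative. The 14 ratios were then 7 positive and 7 negative, with a median of 0.01. None of the 14 reached 1.2-fold in either direction, the range being 1.11-fold lower for Cdc6 to 1.13-fold higher for Mcm6. Among the 6732 genes above 106.3 on both arrays, 92.9% were within 1.2-fold. The 6 subunits of the MCM helicase, the motor that unwinds DNA at the fork, are considered first. Mcm6, whose promoter is printed above, read 1372.2 and 1555.9, with 753.8 and 828.1 at its second probe set. Mcm5 read 1204.8 and 1299.7 (1.08-fold higher), Mcm3 949.3 and 988.5 (1.04-fold higher) and Mcm4 1208.9 and 1230.6 (1.02-fold higher). Mcm7 read 1787.3 and 1823.4 (1.02-fold higher), but its 4 probe sets had log2 ratios from -0.18 to 0.15, 3 of them above 0. Mcm2 read 713.9 and 682.1, 1.05-fold lower, but 531.5 and 560.7 at its second probe set.

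Over the 18 measured probe sets of the helicase genes, 15 were higher in TAZ-deficient lung, among them all 5 of Mcm3. The median log2 ratio of these probe sets was 0.07, a difference of about 1.05-fold. Probe sets of one gene are not independent, and the share of all measured probe sets that were higher was not counted. The sign depended on the scaling, since 5 of the 6 genes had positive ratios as deposited and 3 after quantile normalization. The dimmest probe set of Mcm5 (35.7 and 23.7) was the one of the 18 past 1.2-fold.

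Licensing factors, which load the helicase onto origins once per cycle, differed in direction. Cdt1, which brings the MCM complex to origins, read 885.0 and 971.5, and 473.2 and 525.3 at its second probe set, with log2 ratios of 0.13 and 0.15. Cdc6, its partner in loading, read 304.1 and 275.0 at its single probe set. Gmnn, for geminin, the inhibitor of Cdt1, read 534.5 and 547.9. Gins1, a subunit of the GINS complex that activates the helicase, read 293.8 and 278.5.

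The sliding clamp and the enzymes of nucleotide supply showed equally small differences. Pcna, the clamp that holds polymerases on DNA, read 3015.4 and 3034.4. Rrm1, the large subunit of ribonucleotide reductase, read 1129.5 and 1198.7 (1.06-fold higher), with 795.5 and 859.9 at a second probe set. Rrm2, the small subunit that limits the enzyme outside S phase, read 1614.5 and 1525.9, 1360.2 and 1127.2, and 938.1 and 910.8. All 3 probe sets of Rrm2 were lower, the second 1.21-fold, and both of Rrm1 were higher. Tyms, for thymidylate synthase, read 38.9 and 40.2 at 1 probe set, the other 3 being below 15.2 on both arrays.

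Of 42 further replication genes, 40 were measured, 20 with positive and 20 with negative ratios and a median log2 ratio of 0.00. A single gene was at least 1.2-fold different, namely Rnaseh2a, the catalytic subunit of the nuclease that removes ribonucleotides from DNA (251.4 and 360.7, 1.43-fold higher, 1 probe set). The shares at least 1.2-fold higher were 8.03% of all measured genes and 3.12% of those above 106.3 on both arrays. The 6 subunits of the origin recognition complex lay between 1.09-fold lower and 1.05-fold higher. The 5 subunits of the clamp loader replication factor C lay between 1.04-fold lower and 1.08-fold higher. Of the polymerases delta and epsilon, the 5 subunits that were listed lay between 1.05-fold lower (Pole) and 1.14-fold higher (Pold2). No measured replication gene other than Rnaseh2a reached 1.2-fold at its brightest probe set.

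Genes of mitosis were centred on wild type, with 9 positive and 9 negative ratios among 18 and a median log2 ratio of 0.00. All 18 were within 1.2-fold and 16 within 1.1-fold, beside 92.9% and 72.45% of the 6732 genes above 106.3 on both arrays. Mki67, the gene of the proliferation marker Ki-67, read 717.0 and 769.7 (1.07-fold higher), and Top2a, the topoisomerase that untangles sister chromatids, read 1219.2 and 1344.6 (log2 ratio 0.14). The measured genes of the list for the kinase and cyclins that drive mitotic entry were slightly lower, Ccnb1 having no probe set of its own. Cdk1, which also has E2F letters in its promoter, read 1521.5 and 1459.1 (1.04-fold lower), Ccnb2, for cyclin B2, 996.8 and 950.9 (1.05-fold lower), and Ccna2, for cyclin A2, 1168.9 and 1132.8 (1.03-fold lower) with 820.3 and 800.5 at its second probe set.

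The mitotic kinases gave values on either side of wild type. Plk1, for the polo kinase of spindle assembly, read 362.3 and 418.2, and at 1.15-fold higher it had the highest ratio of the group. Aurka, the spindle pole kinase, read 530.0 and 539.1. Aurkb, the kinase of the chromosomal passenger complex, had the lowest ratio (539.0 and 500.4, 1.08-fold lower), with 343.5 and 332.7 at its second probe set. Birc5, for survivin, another passenger subunit, read 1085.6 and 1050.3. The remaining passenger genes Incenp (938.6 and 1000.4) and Cdca8 (753.1 and 827.4) had log2 ratios of 0.09 and 0.14, so that the 4 subunits did not share a direction.

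Checkpoint genes and those of the anaphase-promoting complex lay near wild type at their brightest probe sets. Bub1, a checkpoint kinase of the kinetochore, read 623.0 and 667.6, and 60.6 and 59.5 at its second probe set. Bub1b, for the checkpoint protein BUBR1, read 461.9 and 469.6. Ube2c, the ubiquitin-conjugating enzyme of the anaphase-promoting complex, read 1793.7 and 1812.6. Cdc20, the activator of that complex, read 1785.6 and 1704.6, 1018.3 and 916.8, and 128.1 and 107.5 at its 3 probe sets. Each probe set of Cdc20 was lower in TAZ-deficient lung, by 1.05-fold, 1.11-fold and 1.19-fold.

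Spindle and chromosome proteins completed the set. Kif11, the motor that pushes spindle poles apart, read 285.3 and 306.7, with 266.9 and 265.9 at its second probe set. Kif20a, a motor of the central spindle, read 483.1 and 467.6, and Nusap1, a microtubule-bundling protein, 975.7 and 930.2. Tpx2, which activates Aurora A, read 446.5 and 448.3, and Cenpa, the histone H3 variant of centromeres, read 822.8 and 818.8. One dim probe set of Tpx2 (15.4 and 23.3) was 1.51-fold higher, which its brighter 3 did not show.

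Of 50 further mitosis genes, 49 were measured, 29 with positive and 20 with negative ratios and a median log2 ratio of 0.01. In this list 3 genes were at least 1.2-fold higher and 0 lower, beside 8.03% and 10.6% of all measured genes. Cenpf, an outer kinetochore protein, read 304.8 and 426.0 (1.40-fold higher), but 27.0 and 23.6 at its dimmer second measured probe set. Ndc80 read 114.1 and 153.1 (1.34-fold higher) and Nuf2 read 208.5 and 271.9 (1.30-fold higher), each at its one probe set. These 2 genes encode one dimer of the 4-subunit complex that couples kinetochores to microtubules. The other dimer, Spc24 (385.1 and 386.5) and Spc25 (530.5 and 514.9), was within 1.03-fold. Foxm1, a transcription factor of mitosis genes, was just short of 1.2-fold lower (138.8 and 116.1), and lower at all 3 measured probe sets.

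**Figure D3:**
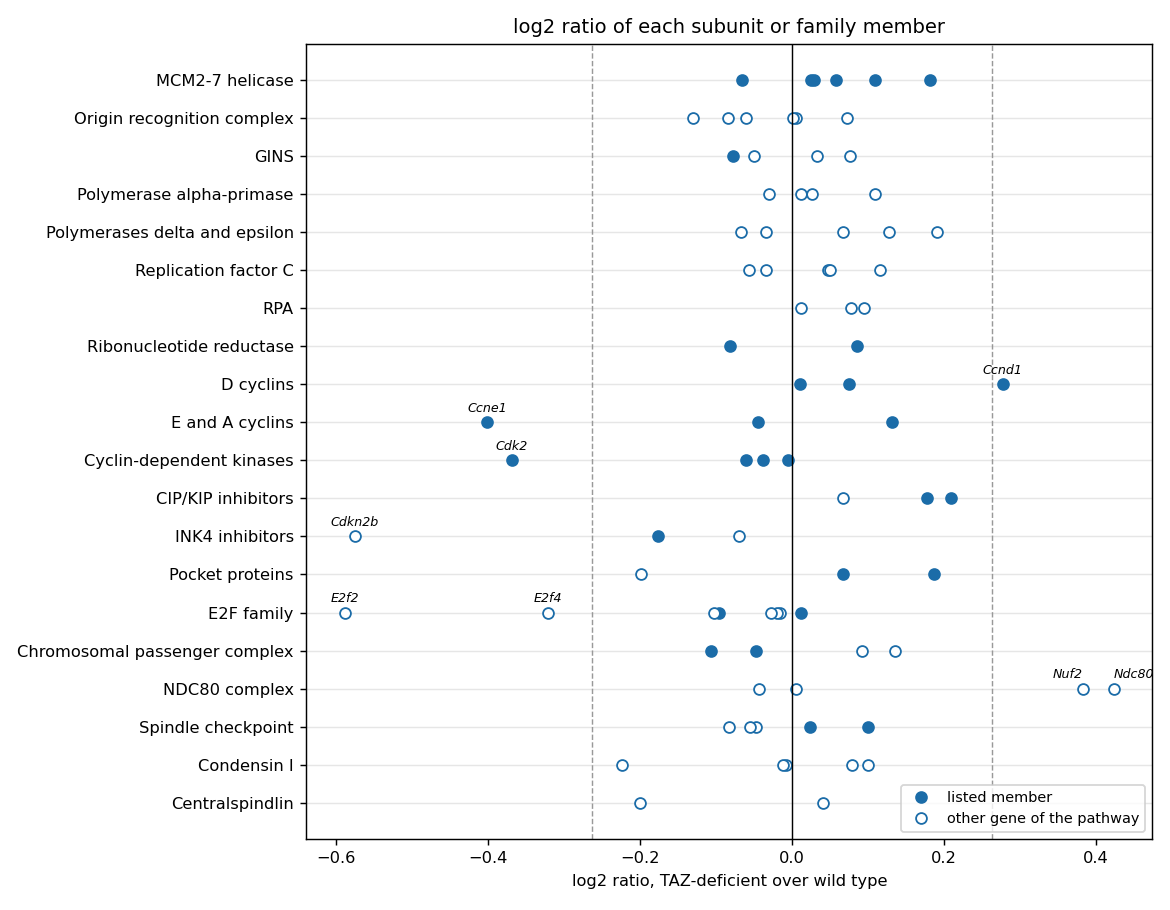
log2 ratio (TAZ-deficient to wild type) for the subunits or family members of 20 complexes and families, each circle being the brightest probe set of 1 measured gene, filled for the listed cell cycle genes and open for further genes of the pathway. Dashed lines mark 1.2-fold; past them lie Ccnd1, Nuf2 and Ndc80 on the right and Ccne1, Cdk2, Cdkn2b, E2f2 and E2f4 on the left, and the subunits of replication complexes cluster near 0.

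The G1/S genes ranged from -0.40 to 0.28 in log2 ratio, the replication genes from -0.15 to 0.18 and the mitosis genes from -0.11 to 0.21. For comparison, the quartiles were -0.13 and 0.10 over all measured genes, and -0.09 and 0.08 over genes above 106.3 on both arrays. Quartiles of the 47 genes were -0.06 and 0.10. The wider range of the G1/S genes rested on Ccne1 and Cdk2 at probe sets with suffixes of shared sequence. Without such probe sets the G1/S genes ranged from -0.18 (Cdkn2c) to 0.28, the replication genes from -0.27 (Rrm2) to 0.18 and the mitosis genes from -0.15 (Cdc20) to 0.21.

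**Figure D4:**
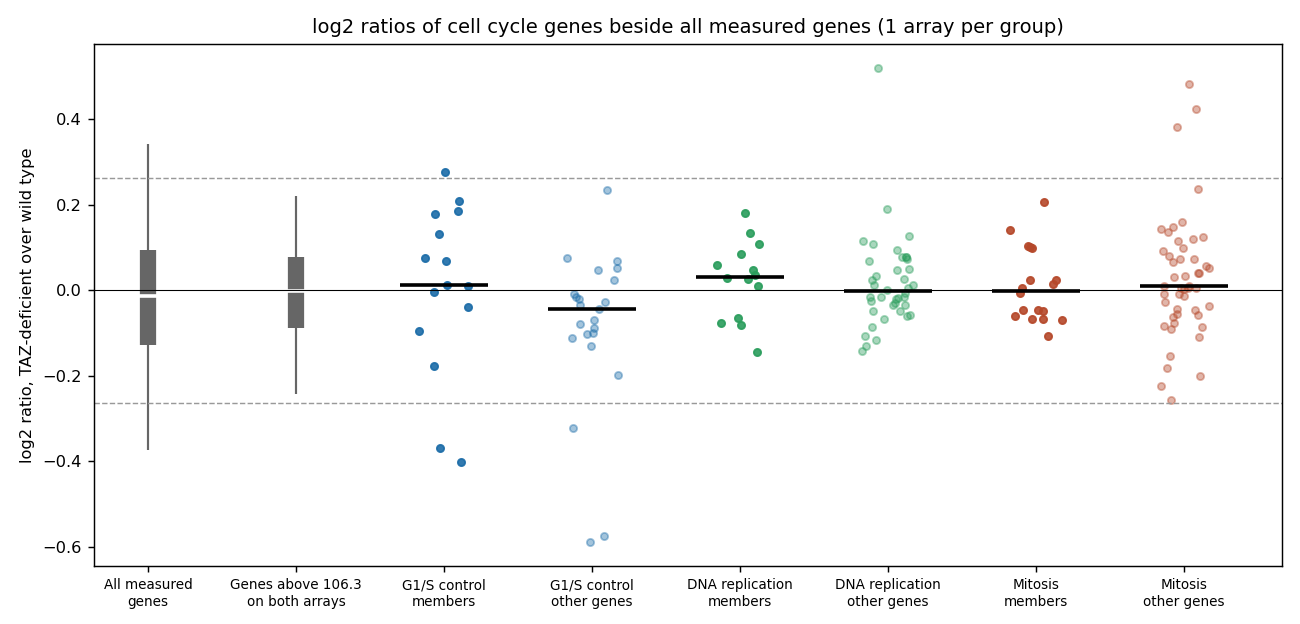
log2 ratio (TAZ-deficient to wild type) for the listed genes of each phase, for the further genes of that phase (points, with the median as a black bar) and for all 12032 measured genes and the 6732 above 106.3 on both arrays (white dash, median; thick bar, 25th to 75th percentile; thin line, 5th to 95th percentile). Medians of the listed genes are 0.01, 0.03 and 0.00, all close to 0, and dashed lines mark 1.2-fold.

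Genes induced by the tumour suppressor p53, which include Cdkn1a, were examined beside the cell cycle genes. Of 12 such genes other than Cdkn1a, 11 had a probe set and were measured, and 10 of the 11 had negative ratios as deposited, 9 under median centring or quantile normalization. The median log2 ratio was -0.13. Over the array, 6370 of 12032 measured genes had negative ratios as deposited. In this list 4 genes were at least 1.2-fold lower, beside 10.6% of all measured genes, but 2 with the median over probe sets, and at the second brightest probe set 0 of 6 were lower and 1 was higher. The 4 genes were Perp, a desmosomal protein (1.39-fold, 175.4 and 125.8), the RNA-binding protein gene Zmat3 (1.33-fold, 104.7 and 78.8), the nuclease gene Aen (1.22-fold, 132.4 and 108.1) and the stress gene Sesn2 (at least 1.91-fold, 29.0 and 14.9). Mdm2, the negative regulator of p53, read 190.6 and 164.4. Cdkn1a itself was 1.13-fold higher, as given above.

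Probe sets of one gene gave the only measure of error that 2 arrays allow. The 47 genes had 113 probe sets, of which 21 were at or below 15.2 on both arrays and 92 were measured. Of the 92, 51 were higher and 41 lower in TAZ-deficient lung, with 5 at least 1.2-fold higher and 5 at least 1.2-fold lower. No share over all measured probe sets of the array is given here, so these counts cannot be read as high or low. Of 27 genes with several measured probe sets, 15 had all of them on one side of 0 and 12 did not. Among the 15 were Mcm3, Mcm6, Cdt1 and Rrm1 above 0 and Cdc20, Rrm2, Ccna2 and Aurkb below. The same count was not made over the array, so 15 of 27 cannot be read as high or low. Taking for each of these 27 genes the gap in log2 ratio between its 2 brightest probe sets, the SD of the gaps over √2 was 0.14, beside 0.12 over the 2330 genes of the array with both above 106.3 and 0.24 over the 3307 others. Variation among embryos, and from pooling, labelling or hybridisation, is not part of this error.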

How the data were processed

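Intensities are the authors' deposited linear values of 45101 probe sets on 2 arrays, 1 per genotype, made, per the submitters' processing notes, with GCOS and MAS5 (versions not given there). Both arrays have the same 2% trimmed mean, 100.001 in deposited intensity, and no further scaling was applied. Probe sets that the platform annotation gives 1 gene (34945, with 932 naming several and 9160 unlisted) were used, and each gene was represented by its brightest probe set, by mean log2 intensity of both arrays. Values below the median of 15.2 were raised to it, and a gene above it on either array counted as measured. The log2 ratio is TAZ-deficient minus wild type, and genes at least 1.2-fold or 1.5-fold apart were counted. Only 1 array per group limits the precision, so there is no test. Promoters came from RefSeq (GRCm38.p6).

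The genes of the list, the further pathway genes and the marker lists were chosen with earlier results of these data known, and the 20 complexes and families, the comparison with bright genes and the 5 printed promoters after the values or letters were seen. Named by rule were the members, at most 6 other genes per pathway or p53 list at least 1.2-fold apart with both signals above the floor, marker genes at least 1.5-fold apart, and Wwtr1. Any other gene was named after its values were seen. Calculations used Python 3.11.15, pandas 2.3.3 and numpy 2.4.6 and were tested on simulated data. Tried as alternatives were other floors, median centring, quantile normalization, another or the median probe set, and leaving out probe sets with suffixes of shared sequence.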

Additional observations from a re-analysis of the deposited data

How the results depend on the processing

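The median log2 ratio of the 47 genes ranged from -0.0054 (second brightest probe set, 27 genes) to 0.0242 (without shared probe sets, 40 genes), and moved by less than 0.1 for each phase under all 7 alternatives. Under quantile normalization 0 genes were at least 1.2-fold higher, likewise 0 with the median over probe sets, and 2 when shared probe sets were left out (Ccnd1 and E2f1), against 1. Without shared probe sets 1 gene was at least 1.2-fold lower (Rrm2), against 2 (Ccne1 and Cdk2). The count stayed at 2 with other genes elsewhere, namely Cdk2 and E2f3 with the median over probe sets, and E2f3 and Rrm2 at the second brightest, where E2f1 was the 1 gene higher, so that Ccne1 was not among them in these 3 alternatives. The log2 ratio of Ccnd1 turned to -0.047 with the median over probe sets and with the second brightest probe set, its other probe sets being lower. At the second brightest probe set 1 gene was 1.5-fold lower (E2f3), and no gene was 1.5-fold apart under the other 6. Quantile normalization left 24 of 47 ratios above 0, against 28, and median centring 30, the flipped ratios being 0.029 or smaller in size on the deposited scale and reaching -0.048 (Pcna) after quantile normalization. No array could be left out. No paired analysis was possible because each genotype has 1 array. Low signal limits Tyms and Cdkn1a most, both of which lay below 106.3.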
